A study of Mus musculus with 43 samples.

Results

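The mRNAs of 9 secreted products of fat, given by their symbols Adipoq, Lep, Retn, Rbp4, Nampt, Cfd, Lcn2, Nrg4 and Apln, were followed through every perturbed group and its control. These are 9 of the 26264 genes in each of 6 count tables. The genes were taken by symbol. All 9 passed the filter on low counts in all 6 tables, so no member is missing from any comparison. The lowest single count was 6 reads, for Lep in a Runx2 overexpression library.

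Fat is an endocrine tissue. Adipocytes secrete adiponectin (Adipoq), which sensitises liver and muscle to insulin, and leptin (Lep), which reports the size of the fat stores to the brain. Resistin (Retn) in mice is made by adipocytes, retinol binding protein (Rbp4) carries vitamin A in blood, and NAMPT makes the precursor of NAD inside cells and is also found outside them. Adipsin (Cfd) is the protease that starts the alternative complement pathway, lipocalin (Lcn2) binds bacterial siderophores and is an acute phase protein, neuregulin 4 (Nrg4) is an ErbB ligand known from brown fat, and apelin (Apln) acts on its own receptor, Aplnr. RUNX1 and RUNX2 are transcription factors that bind DNA with CBFB at the core sequence TGTGGT or TGCGGT.

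The data are 43 mouse RNA-seq libraries that fall into 15 groups. Cells of a line called BAT were induced as brown preadipocytes to become mature brown adipocytes, and all culture groups share that induction. One table held the control labelled OEV (genotype WT) and overexpression of Runx1 or Runx2, with 3 libraries each. A second held a wild-type knockout control, Runx1 knockout, Runx2 knockout and a knockout of both genes, with 3 libraries each. The last culture table held full-length Runx2 and Runx2 from which the part labelled IDR was deleted, with 2 libraries each and no culture without added Runx2. Tissue labelled IWAT came from Runx1 flox mice and Adipoq-cre:Runx1 knockout mice, from Runx2 flox mice and Adipoq-cre:Runx2 knockout mice, and from WT and Runx1 knockout mice labelled HFD, with 3 libraries each. Adipoq-cre is driven by the regulatory sequences of 1 of the 9 genes, so Cre acts in adipocytes and every other cell of the tissue keeps its Runx genes. No Cre is given for the flox controls, and the HFD labels name no Cre line. The labels give no ages and no clones. They do not say which libraries came from different cultures or mice, so each p-value measures only the spread between libraries, which may be technical.

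Library totals ran from 28092200 to 52171380 counts. Levels are in CPM, each count over its library's total, scaled within a table by TMM, and a gene was called at an adjusted p under 0.05 in edgeR's quasi-likelihood test. Runx1 mRNA was 73.9 ± 10.5 CPM (SD, n = 3) in Runx1 overexpression against 5.57 ± 1.23 CPM (SD, n = 3) in OEV, and Runx2 mRNA was 309 ± 25.8 CPM (SD, n = 3) in Runx2 overexpression against 8.77 ± 0.892 CPM (SD, n = 3). The other factor's mRNA was also above OEV. Runx1 was 30.3 ± 2.03 CPM (SD, n = 3) in Runx2 overexpression, and Runx2 was 16.8 ± 1.37 CPM (SD, n = 3) in Runx1 overexpression. The part of the other factor in the changes under each was not tested. In the cultures labelled knockout the targeted mRNAs were not lower beyond the spread of the libraries: Runx1 was 5.43 ± 1.13 CPM (SD, n = 3) in the Runx1 knockout against 5.24 ± 2.62 CPM (SD, n = 3) in its control, and Runx2 was 7.61 ± 0.956 CPM (SD, n = 3) in the Runx2 knockout against 7.71 ± 1.28 CPM (SD, n = 3). In the double knockout Runx1 was 4.72 ± 1.55 CPM (SD, n = 3) and Runx2 7.55 ± 1.39 CPM (SD, n = 3). Directions for those cultures therefore rest on their labels. In IWAT, Runx1 was -0.62 (adjusted p = 0.0779) and Runx2 -1.19 (adjusted p = 0.254) on the log2 scale in the respective knockout, and Runx1 was -0.30 in the HFD knockout (adjusted p = 0.955), all by edgeR's quasi-likelihood test. Some libraries stood apart. Replicate 1 of the double knockout had 19945 CPM of 6 summed adipocyte markers, against 11294 and 10850.1 in the other two. Skeletal muscle markers exceeded 1000 CPM in 3 of 6 libraries of the Runx1 IWAT table, flox replicate 2 and knockout replicates 2 and 3. They did so in 1 of 6 of the Runx2 IWAT table, Runx2 flox replicate 3. Cardiac muscle markers reached 113 and 436 CPM in OEV replicates 1 and 2 and 1650 CPM in replicate 3 of Runx1 overexpression. The 6 adipocyte markers were detected in every library, and brown adipocyte markers were detected in every control culture, summing to 247 to 317 CPM in the knockout controls.

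All 9 genes had a promoter in the RefSeq table (build GRCm38.p6, while the submitters' build was mm39), 10 promoters in all because Rbp4 has a second one. The core TGTGGT or TGCGGT was searched on both strands in the 250 bases before to 50 bases after each start site. It was found in 3 of the 10 promoters, those of Rbp4, Apln and Nrg4, against 22.4% of 32851 promoters in the table (16.8% for TGTGGT and 6.45% for TGCGGT). These 3 are shown because their mRNAs fell under both RUNX factors. The promoters of Nampt and Lcn2 are shown beside them because those mRNAs also fell under both and their promoters hold neither core. Each sequence is the 250 bases before the start site, 5′ to 3′ on the gene's strand, with the core and its reverse complement in capitals.
Rbp4 (chr19:38125322-38125571, minus strand): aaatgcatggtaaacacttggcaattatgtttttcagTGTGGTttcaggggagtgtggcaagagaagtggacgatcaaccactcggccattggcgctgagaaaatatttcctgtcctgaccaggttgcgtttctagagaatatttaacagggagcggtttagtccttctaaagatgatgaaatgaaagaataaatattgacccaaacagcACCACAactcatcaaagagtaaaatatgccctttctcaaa
Apln (chrX:48034854-48035103, minus strand): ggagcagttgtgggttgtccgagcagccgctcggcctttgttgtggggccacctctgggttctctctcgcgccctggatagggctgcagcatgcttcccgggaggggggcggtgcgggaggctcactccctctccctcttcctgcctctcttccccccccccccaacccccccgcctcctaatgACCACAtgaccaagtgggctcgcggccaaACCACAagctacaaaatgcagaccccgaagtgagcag
Nrg4 (chr9:55283626-55283875, minus strand): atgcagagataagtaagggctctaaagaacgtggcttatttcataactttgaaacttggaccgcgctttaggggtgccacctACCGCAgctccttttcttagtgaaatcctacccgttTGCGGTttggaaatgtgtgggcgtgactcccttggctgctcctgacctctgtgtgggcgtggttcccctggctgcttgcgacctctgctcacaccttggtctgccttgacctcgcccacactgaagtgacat
Nampt (chr12:32820085-32820334, plus strand): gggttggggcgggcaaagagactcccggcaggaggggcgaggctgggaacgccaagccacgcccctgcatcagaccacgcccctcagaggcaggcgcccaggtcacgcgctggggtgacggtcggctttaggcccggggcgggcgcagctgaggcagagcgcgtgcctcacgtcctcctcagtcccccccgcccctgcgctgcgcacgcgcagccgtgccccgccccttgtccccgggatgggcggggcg
Lcn2 (chr2:32387740-32387989, minus strand): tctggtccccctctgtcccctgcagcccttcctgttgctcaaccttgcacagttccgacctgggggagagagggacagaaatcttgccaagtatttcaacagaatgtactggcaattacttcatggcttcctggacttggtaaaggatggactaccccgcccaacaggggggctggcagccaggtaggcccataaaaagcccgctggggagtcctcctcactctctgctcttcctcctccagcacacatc

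In Rbp4 the core began 213 bases before the start site and, on the reverse strand, 40 bases before it. Apln held both of its matches on the reverse strand, 66 and 37 bases before the start. Nrg4 held TGCGGT 168 bases before the start on the reverse strand and 132 bases before it on the forward strand. A match is a description of letters, and no binding was measured.

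In the overexpression cultures most of these hormones fell, and Rbp4 fell furthest. Under Runx1, 5 of the 9 fell (Rbp4, Nampt, Lcn2, Apln and Nrg4) and 2 rose (Retn and Adipoq). Under Runx2, 8 of the 9 fell and none rose, and Adipoq was not called. The background was high in both: 54% of 14661 tested genes were called under Runx1 (28.2% higher and 25.8% lower) and 60.9% under Runx2 (31.3% higher and 29.6% lower). All counts of related lists against OEV given below are to be read beside these shares. The median log2 change over the 9 genes was -0.64 under Runx1 and -1.43 under Runx2, beside 0.0577 and 0.0257 over all tested genes. Each of these 15 calls was kept in all alternative settings that were run. In each comparison 8 of the 9 had groups that did not overlap, as had 59.7% and 69.5% of all tested genes. Both comparisons share the 3 OEV libraries. Of the 6 summed adipocyte markers, 2 rose and 3 fell under Runx1, and 0 rose and 5 fell under Runx2. Their summed level was 12087 to 13307 CPM in OEV, 13326 to 14187 CPM under Runx1 and 8199 to 8988 CPM under Runx2. Brown adipocyte markers summed to 182 to 300.5 CPM in OEV, 16.4 to 34.9 CPM under Runx1 and 5.51 to 8.72 CPM under Runx2. Smooth muscle and pericyte markers summed to 171 to 210.3, 1076 to 1457 and 1163 to 1461 CPM in the same order, and stromal progenitor markers to 78.8 to 116, 318 to 352 and 568 to 612 CPM. The macrophage markers summed to 4.68 to 8.09, 7.09 to 11.5 and 12.5 to 14.3 CPM. The part of these markers in the hormone changes was not tested.

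**Figure D1:**
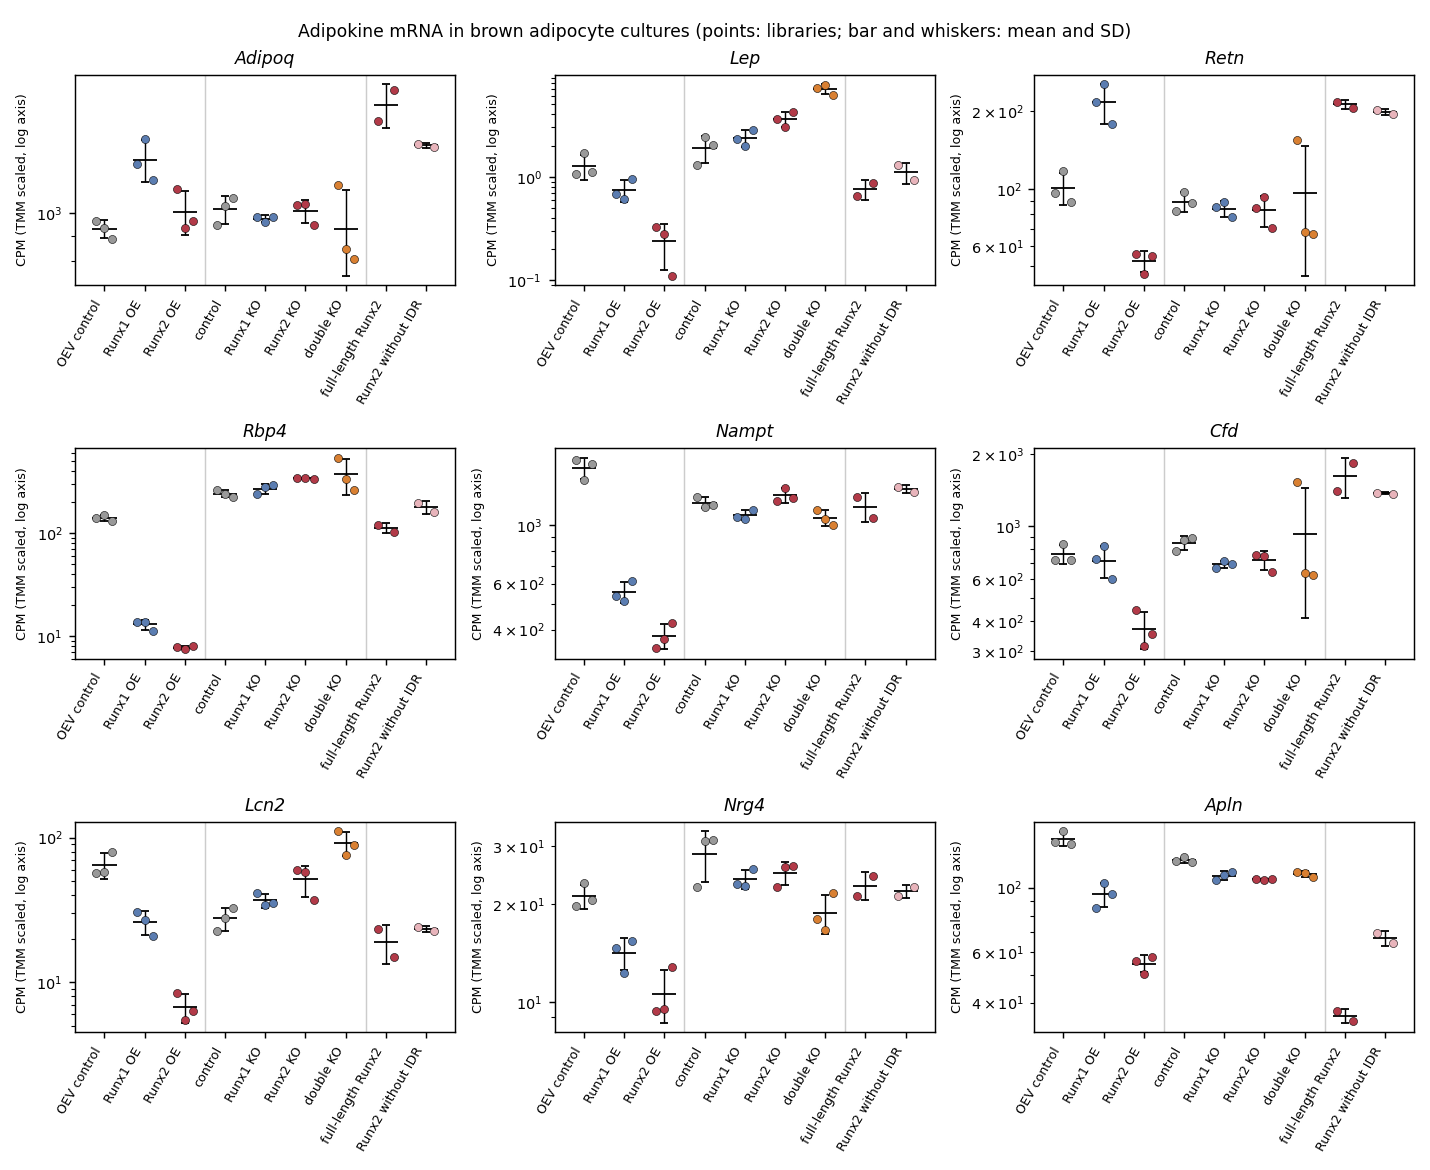
CPM of each gene (log axis) in every culture library, with the mean and SD of each group; grey lines separate the 3 tables, which were scaled separately. Rbp4 lies at 132 to 149 CPM in OEV, at 11.3 to 13.8 CPM under Runx1 and at 7.42 to 7.91 CPM under Runx2.

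Of the hormones with metabolic targets, adiponectin changed little. Adipoq was at 963, 934 and 886 CPM in the 3 OEV libraries, 1261, 1417 and 1169.6 under Runx1 and 1122, 932 and 964 under Runx2. All Runx1 libraries lay above OEV, while the Runx2 values overlapped it. Adipoq rose by 0.47 (SE 0.10) on the log2 scale under Runx1 (adjusted p = 0.00256, edgeR's quasi-likelihood test). Under Runx2 the difference was 0.12, with a 95% interval of -0.11 to 0.34. Of 15 genes for the assembly and secretion of adiponectin and other hormones, 3 rose and 7 fell under Runx1, and 3 rose and 5 fell under Runx2. Ero1a, the oxidase of the endoplasmic reticulum that aids adiponectin assembly, was -3.50 (SE 0.20) and -4.52 (SE 0.21) on the log2 scale. Hspa5, a chaperone there, was -1.19 and -0.89, and both genes passed the test under both factors.

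Leptin mRNA was scarce in these brown adipocytes and lower still under Runx2. Lep was at 1.05, 1.68 and 1.10 CPM in OEV, 0.688, 0.608 and 0.962 under Runx1 and 0.327, 0.281 and 0.111 under Runx2. Groups did not overlap in either comparison. It fell by 2.42 (SE 0.52) on the log2 scale under Runx2 (adjusted p = 0.00186, edgeR's quasi-likelihood test), and the Runx1 difference of -0.76 (SE 0.49) was not called (adjusted p = 0.21).

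Resistin moved in opposite directions under the 2 factors. Retn was at 96.6, 117 and 88.8 CPM in OEV, 218, 255 and 179 under Runx1 and 55.9, 46.8 and 54.9 under Runx2. Every Runx1 library was above every OEV library, and every Runx2 library was below. It rose 2.15-fold under Runx1 (log2 1.11, SE 0.14, adjusted p = 6.12e-05) and fell 1.92-fold under Runx2 (log2 -0.94, SE 0.14, adjusted p = 1.46e-04). Tested directly by edgeR's quasi-likelihood test, Runx2 against Runx1 overexpression gave -2.05 (SE 0.15, adjusted p = 2.35e-06).

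The vitamin A carrier Rbp4 was at 141, 149 and 132 CPM in OEV, 13.8, 13.7 and 11.3 under Runx1 and 7.82, 7.42 and 7.91 under Runx2. The 3 groups were fully apart. Rbp4 fell 10.8-fold under Runx1 (log2 -3.44, SE 0.11, adjusted p = 4.73e-09) and 18.2-fold under Runx2 (log2 -4.19, SE 0.11, adjusted p = 3.46e-10) by edgeR's quasi-likelihood test. Its first promoter is the one shown above with TGTGGT on either strand. Of 17 other genes of retinoid handling tested, 8 rose and 3 fell under Runx1, and 6 rose and 5 fell under Runx2. Rdh10, which oxidises retinol to retinal, rose by 1.57 under Runx1. Dhrs3, which reduces retinal back to retinol, fell by 1.73 under Runx2. Rarg, a retinoic acid receptor, rose by 1.60 under Runx2. The largest changes among the named genes of this list were of Cyp26a1, which rose by 8.36 (SE 0.68) under Runx1 and 10.28 (SE 0.65) under Runx2. Cyp26b1 rose by 2.35 under Runx1.

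Nampt, the entry enzyme of NAD salvage, was at 1778, 1487 and 1714 CPM in OEV, 539, 515 and 615 under Runx1 and 341, 370.2 and 423 under Runx2, with no overlap. It fell by 1.58 (SE 0.11) and 2.13 (SE 0.12) on the log2 scale (adjusted p = 7.86e-07 and 4.14e-08, edgeR's quasi-likelihood test). Of 14 other genes of NAD salvage and use, 2 rose and 6 fell under Runx1, and 4 rose and 8 fell under Runx2. Nadk2, the mitochondrial NAD kinase, was -1.43 and -1.81, and Sirt3, a mitochondrial NAD-dependent deacylase, was -1.93 and -1.94. Nnmt, which methylates nicotinamide, rose by 1.46 under Runx1.

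Adipsin and lipocalin, the members with roles in innate immunity, both fell under Runx2. Cfd was at 722, 841 and 723 CPM in OEV, 726, 822 and 603 under Runx1 and 445, 315 and 354 under Runx2. The Runx1 libraries overlapped OEV and the Runx2 libraries did not. The difference was -0.09 under Runx1 (95% interval -0.40 to 0.23), and Cfd fell by 1.04 (SE 0.15) on the log2 scale under Runx2 (adjusted p = 7.69e-05, edgeR's quasi-likelihood test). Of 11 other complement genes tested, 4 rose and 1 fell under Runx1, where 28.2% of all genes were called higher and 25.8% lower. Under Runx2, 6 rose and 2 fell, beside 31.3% and 29.6% of all genes. C4b, a component of the classical and lectin pathways, rose by 3.30 (SE 0.16) on the log2 scale under Runx2. Masp1, a protease that cleaves complement proteins, rose by 3.10 under Runx1 and 4.11 under Runx2.

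Lcn2 was at 56.7, 57.9 and 79.6 CPM in OEV, 30.6, 26.7 and 20.9 under Runx1 and 8.39, 5.48 and 6.32 under Runx2. All 3 groups were apart. It fell 2.48-fold under Runx1 (log2 -1.31, SE 0.19, adjusted p = 1.54e-04) and 9.63-fold under Runx2 (log2 -3.27, SE 0.21, adjusted p = 1.34e-07) by edgeR's quasi-likelihood test. Lcn2 is a classical NF-kappaB target. Of 16 other NF-kappaB and acute phase genes tested, 8 rose and 4 fell under Runx1, and 11 rose and 2 fell under Runx2. The acute phase gene Hp, haptoglobin, rose by 2.58 under Runx1 and the chemokine gene Ccl7 by 4.11 under Runx2. Steap4, a metalloreductase of adipocytes, was at -1.50 under Runx1 and -2.88 under Runx2. Neutrophils also express Lcn2, and their 6 markers summed to 0.425 to 0.772 CPM in OEV, 2.17 to 3.32 CPM under Runx1 and 1.63 to 2.31 CPM under Runx2.

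The receptor ligands Nrg4 and Apln fell under both factors. Nrg4 was at 19.8, 23.2 and 20.5 CPM in OEV, 14.6, 12.3 and 15.5 under Runx1 and 9.40, 9.56 and 12.8 under Runx2. It fell by 0.58 (SE 0.15) and 0.99 (SE 0.15) on the log2 scale (adjusted p = 0.00637 and 1.38e-04, edgeR's quasi-likelihood test). Apln was at 144, 157 and 142 CPM in OEV, 85.3, 104 and 95.4 under Runx1 and 56.0, 50.5 and 57.4 under Runx2. It fell by 0.64 (SE 0.10) and 1.43 (SE 0.10), with adjusted p = 1.95e-04 and 2.32e-07 in edgeR's quasi-likelihood test. Neither gene's groups overlapped OEV. Among 14 tested adipokine receptors and binding partners, 6 rose and 5 fell under Runx1, and 6 rose and 3 fell under Runx2. Cdh13, a surface protein that binds adiponectin, rose by 2.96 and 2.47. Lepr, the leptin receptor, rose by 5.87 (SE 0.54) and 6.02 (SE 0.54).

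Compared directly, all 9 hormones were lower under Runx2 than under Runx1 overexpression, against a background of 39.9% called and 21% called lower. The differences ran from -0.35 for Adipoq to -2.05 for Retn, with a median of -0.80 beside -0.0213 over all tested genes. Lcn2 (-1.96, SE 0.20), Cfd (-0.95, SE 0.15) and Rbp4 (-0.75, SE 0.10) were among the 6 that kept the call in all settings. In 8 of the 9 the groups did not overlap, as in 51.3% of all genes. The Nrg4 groups overlapped, and its call (adjusted p = 0.046 in edgeR's quasi-likelihood test) was lost in 8 settings. The Adipoq and Lep calls were lost in 4 settings each; among single libraries, leaving out replicate 1 of Runx1 or replicates 2 or 3 of Runx2 ended both, and replicate 2 of Runx1 that of Adipoq. All 6 adipocyte markers were also lower under Runx2 than under Runx1 (median log2 -0.86); their part was not tested. Of 41 other secreted factors of adipocytes, 16 were higher and 9 lower under Runx2. Against OEV, 22 of the 41 rose and 9 fell under Runx1, and 28 rose and 5 fell under Runx2. Vegfa, an angiogenic factor, fell by 1.91 and 2.06, and the monocyte chemokine gene Ccl2 rose by 5.42 under Runx2. Of 15 adipocyte transcription factors, 8 fell under Runx1 and 9 under Runx2, among them Ebf2 (-2.22 and -2.54), a factor of brown fat identity, and Klf15 (-0.95 and -1.75).

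**Figure D2:**
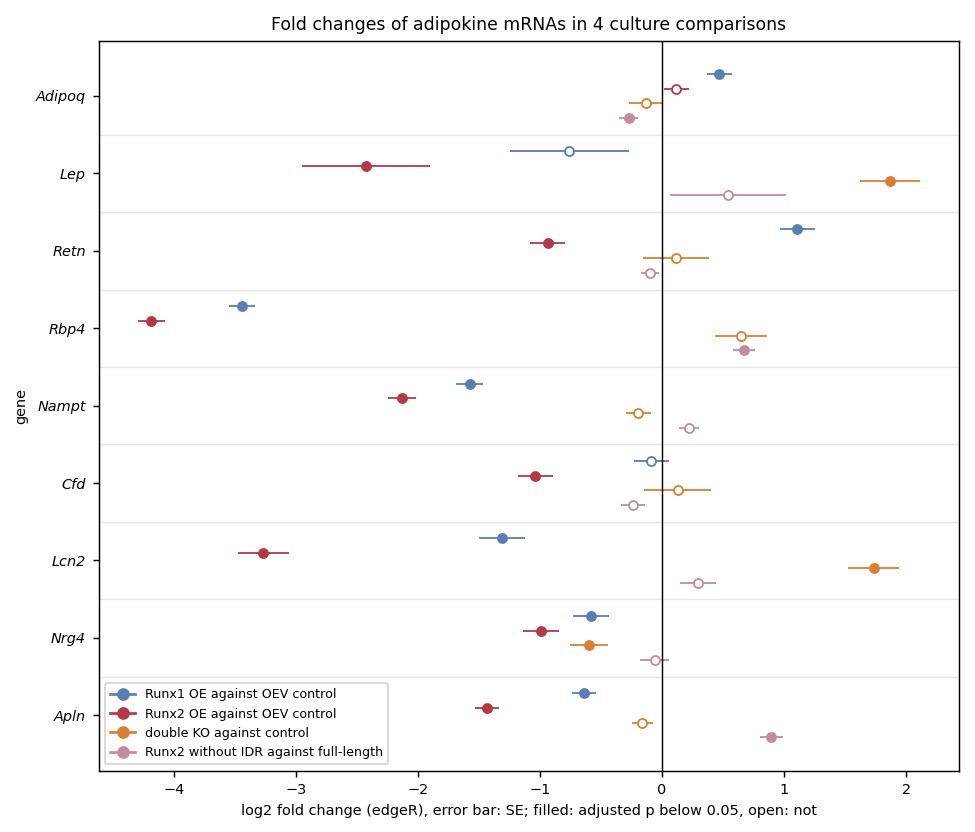
Log2 fold change of each gene with its SE in 4 culture comparisons; filled points passed the test at adjusted p under 0.05 and open points did not. Rbp4 lies at -3.44 and -4.19 under Runx1 and Runx2 overexpression, and Lep and Lcn2 at 1.87 and 1.73 in the double knockout.

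In the cultures labelled knockout, leptin and lipocalin rose where both genes were targeted, and no member was called in either single knockout. The background of called genes was 0.435% of 13551 in the Runx1 knockout and 0.184% in the Runx2 knockout, so few genes of any kind were called there. An unadjusted p under 0.05 was found for 0 and 4 of the 9 members, beside 942 and 872 of all genes. Groups did not overlap in 4 members and 22.9% of genes in the Runx1 knockout, and in 5 members and 18.9% of genes in the Runx2 knockout. With DESeq2 the Runx1 knockout had 0 members called and the Runx2 knockout 1, Lcn2. In the double knockout 3 of 9 members were called (Lep and Lcn2 higher, Nrg4 lower), beside 15.3% of all genes (8.27% higher and 7.01% lower). Groups did not overlap in 6 members and 30.6% of genes. The 3 comparisons with the control share its 3 libraries.

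Lep was at 1.29, 2.41 and 2.05 CPM in the control, 2.33, 1.97 and 2.83 in the Runx1 knockout, 3.60, 3.00 and 4.26 in the Runx2 knockout and 7.19, 7.76 and 6.19 in the double knockout. Each double knockout library lay above all 9 others, and each Runx2 knockout library lay above the controls. Lep rose 3.66-fold in the double knockout (log2 1.87, SE 0.24, adjusted p = 4.75e-04 in edgeR's quasi-likelihood test). In the Runx2 knockout the difference was 0.91 (SE 0.25, adjusted p = 0.236) and in the Runx1 knockout 0.30 (SE 0.25). Lcn2 followed the same order, at 22.4, 27.9 and 32.4 CPM in the control, 41.6, 34.0 and 35.1 in the Runx1 knockout, 59.9, 57.3 and 36.7 in the Runx2 knockout and 111, 76.0 and 88.8 in the double knockout. It rose 3.33-fold in the double knockout (log2 1.73, SE 0.21, adjusted p = 3.04e-04 in edgeR's quasi-likelihood test), with differences of 0.89 (SE 0.21, adjusted p = 0.144) and 0.42 (SE 0.21) in the Runx2 and Runx1 knockouts. Without double knockout replicate 1 the changes were 1.86 for Lep and 1.59 for Lcn2 (adjusted p = 3.13e-05 and 2.41e-05, edgeR's quasi-likelihood test).

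Set directly against each single knockout, the double knockout was higher in the same pair of genes. Against the Runx1 knockout, Lep was higher by 1.57 (SE 0.24, adjusted p = 0.00442) and Lcn2 by 1.31 (SE 0.21, adjusted p = 0.00507), where 6.44% of all genes were called. Against the Runx2 knockout, Lep was higher by 0.96 and Lcn2 by 0.84 (both adjusted p = 0.0362), where 5.52% were called, all by edgeR's quasi-likelihood test. Fitting the compared groups alone ended the calls against the Runx1 knockout (adjusted p = 0.0626 and 0.065). Those against the Runx2 knockout were lost in that fit too (adjusted p = 0.115 and 0.187) and without any 1 of the 3 Runx2 knockout libraries (adjusted p from 0.0639 to 0.151), and that of Lep without double knockout replicate 2.

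Nrg4 was at 22.5, 31.2 and 31.3 CPM in the control and 18.0, 16.6 and 21.6 in the double knockout, with no overlap. It fell by 0.60 (SE 0.15) on the log2 scale (adjusted p = 0.0213, edgeR's quasi-likelihood test). That call was lost without control replicate 2, control replicate 3 or double knockout replicate 2 (adjusted p = 0.0897, 0.0842 and 0.0702), and in a fit of the compared groups alone (adjusted p = 0.175). In both the overexpression cultures and the double knockout, Nrg4 was thus lower than in the control of its own table. Rbp4 was at 262, 241 and 226 CPM in the control, 238, 279.7 and 297 in the Runx1 knockout, 343, 347 and 336 in the Runx2 knockout and 542, 334 and 264 in the double knockout. Its difference in the double knockout, 0.65 (SE 0.21), missed the threshold (adjusted p = 0.0573, edgeR's quasi-likelihood test), although all 3 libraries were above the controls. Rbp4 was called in 4 of 11 alternatives. These were DESeq2's test (0.66, adjusted p = 0.0218), edgeR's test with no count filter (adjusted p = 0.0464), and edgeR's test without double knockout replicate 1 or replicate 3. Apln was at 124, 127 and 123 CPM in the control and between 106 and 113 CPM in the 9 knockout libraries, below every control and with no call.

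A single library decided what Cfd, Retn and Adipoq showed in the double knockout, and whether the Nampt difference was called. Cfd was at 1529.7, 634 and 626 CPM in its 3 libraries against 787, 873 and 893 in the control, and Retn at 155, 68.0 and 66.8 against 82.1, 97.7 and 88.0. In replicate 1 both were above every control, and in replicates 2 and 3 both were below. Adipoq showed the same split, at 1142, 843 and 804 CPM against 945, 1036 and 1075. With all 3 libraries the differences were 0.13, 0.11 and -0.13, none called. Nampt was at 1005 to 1147 CPM in the double knockout and 1177 to 1288 CPM in the control, with no overlap (-0.19, not called). Without replicate 1, Cfd was -0.43, Retn -0.40, Adipoq -0.30, Nampt -0.24 and Rbp4 0.31, all called by edgeR's quasi-likelihood test (adjusted p from 0.00105 to 0.0381). The number of members called then went from 3 to 8, with Apln (-0.16) the one left. Over all genes, calls ranged from 1050 to 3584 with 1 library left out, against 2070 with all libraries. The fit without replicate 1 tested 13771 genes, and its count over all genes lies within that range. That library also had 19945 CPM of adipocyte markers, against 10266 to 10947 CPM in the controls. Brown adipocyte markers summed to 338 to 452 CPM in the double knockout and 247 to 317 CPM in the controls. The part of these markers was not tested. In bulk RNA, fewer cells of a type and less RNA per cell cannot be told apart.

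**Figure D3:**
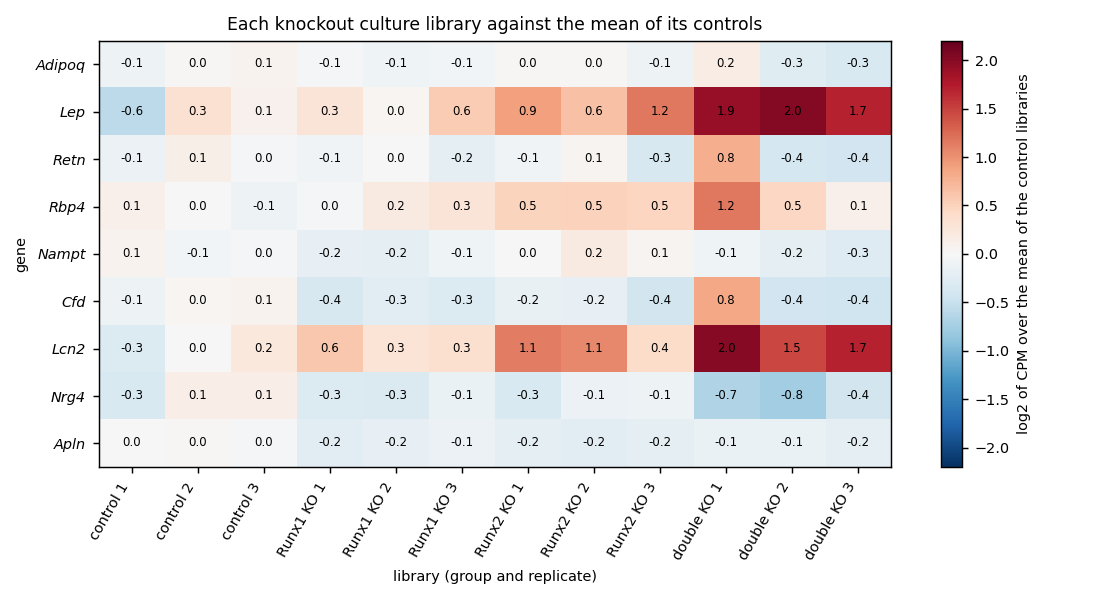
Log2 of each gene's CPM over the mean of the 3 control libraries, for every library of the knockout cultures (columns) and each gene (rows). Lep and Lcn2 are above the control mean in all 3 double knockout libraries, while Cfd, Retn and Adipoq are above it in replicate 1 and below it in replicates 2 and 3.

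The related lists in the double knockout can be read against the background of 15.3% of genes called, 8.27% higher and 7.01% lower. Of 16 NF-kappaB and acute phase genes, 4 rose and 0 fell, among them Steap4 (1.59, SE 0.12), the acute phase gene Orm1 (1.21) and Ccl7 (1.49). Steap4 was also called in the Runx1 knockout (0.70, adjusted p = 0.0215) and the Runx2 knockout (0.78, adjusted p = 0.0189) by edgeR's quasi-likelihood test. Neutrophil markers summed to 0.502 to 1.12 CPM in the double knockout and 0.512 to 1.60 CPM in the control. Of 35 other secreted factors, 10 rose and 2 fell, among them Ccl2 (4.04) and Agt (-1.30), which encodes angiotensinogen. Of 13 genes in the retinoid list, 5 rose and 1 fell, led by the aldehyde dehydrogenase gene Aldh1a7 (1.40). Of 15 adipocyte transcription factors, 4 fell and none rose, among them Klf15 (-1.25) and Cebpa (-0.49). Of the 8 tested receptors, Cdh13 rose (1.45) and the adiponectin receptor gene Adipor1 fell (-0.40).

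With Runx2 lacking the IDR, Apln and Rbp4 were higher than with full-length Runx2. Apln was at 37.4 and 34.6 CPM with full-length Runx2 and 69.9 and 64.2 CPM without the IDR. Rbp4 was at 121 and 103 CPM with full-length Runx2 and 196 and 161 CPM without the IDR. The 2 libraries of each group did not overlap for either gene, which held for 7 members and 44.5% of all genes. Apln was higher by 0.90 (SE 0.10, adjusted p = 1.83e-08) and Rbp4 by 0.67 (SE 0.09, adjusted p = 1.58e-05) on the log2 scale in edgeR's quasi-likelihood test. Adipoq was at 1543 and 1784 CPM with full-length Runx2 and 1387 and 1365 CPM without the IDR, lower by 0.27 (SE 0.08, adjusted p = 0.028), a call that ended without full-length replicate 2 (adjusted p = 0.679). So 3 of 9 members were called, where 3.91% of 13110 tested genes were. Without full-length replicate 1, which keeps a lone full-length library, Cfd was at -0.42, Nampt at 0.36 and Lcn2 at 0.64 on the log2 scale. The authors' deposited table of this comparison lists 341 genes, and the same 3 members are in it, with log2 values of 0.90 for Apln, 0.67 for Rbp4 and -0.27 for Adipoq. Runx2 itself was counted at 129 ± 20.2 CPM (SD, n = 2) without the IDR and 294 ± 0.885 CPM (SD, n = 2) with the full length. The missing part and the lower counted level of Runx2 cannot be told apart. Whether fewer transcripts or the deleted stretch itself lowered that count was not tested. Of 15 genes of adiponectin assembly, 2 rose, Ero1a (0.81) and Hspa5 (0.25), and none fell.

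The other 6 members were not called in that table. Lep was at 0.649 and 0.880 CPM with full-length Runx2 and 1.29 and 0.933 without the IDR, too few counts to place the difference of 0.54 more narrowly than -0.42 to 1.50. Nampt (0.22, adjusted p = 0.124) and Cfd (-0.24, adjusted p = 0.227) came nearest to the threshold of edgeR's quasi-likelihood test. Retn and Nrg4 differed by -0.10 and -0.06, with 95% intervals of -0.25 to 0.05 and -0.30 to 0.18.

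In IWAT of Adipoq-cre:Runx1 knockout mice, no member was called, while 7.48% of 15896 tested genes were. At an unadjusted p under 0.05 there were 3 members (Cfd, Nampt and Nrg4) and 3994 genes. DESeq2 called Cfd and Nampt. Lep was at 18.9, 98.8 and 61.9 CPM in the flox libraries and 246, 139.6 and 103 in the knockout. All knockout values were above all flox values, but the difference of 1.44 (SE 0.74) had an adjusted p of 0.32 in edgeR's quasi-likelihood test and a 95% interval of -0.54 to 3.43. Cfd was at 9353, 9934 and 8166 CPM in flox and 11402, 13068 and 12635 in the knockout, also without overlap (0.43, SE 0.14, adjusted p = 0.0828). Nampt was at 354, 298 and 255 CPM in flox and 210.2, 206 and 227 in the knockout, lower in every library (-0.50, SE 0.15, adjusted p = 0.0715). These 3 genes separated the groups without passing the adjusted threshold, as groups did in 31.4% of all genes.

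Nrg4 was at 48.5, 67.2 and 43.8 CPM in Runx1 flox and 87.4, 66.2 and 72.2 in the knockout (0.50, SE 0.18, adjusted p = 0.106 in edgeR's quasi-likelihood test). Flox replicate 2, the one that overlapped the knockout, also carried 7232 CPM of skeletal muscle markers. Knockout replicates 2 and 3 carried more, 16317 and 7702 CPM. What part these markers have in the Nrg4 values was not tested. Without flox replicate 2, Nrg4 was called at 0.70 (adjusted p = 0.0266, edgeR's quasi-likelihood test). Leaving out all 3 libraries over 1000 CPM of such markers kept a lone knockout library (87.4 CPM), and the difference was then 0.92. Nampt was called without flox replicate 3 (-0.60, adjusted p = 0.0427). Adipoq, at 1364, 1987 and 1224 CPM in flox and 1597, 1518 and 1467 in the knockout, differed by 0.00211 with a 95% interval of -0.41 to 0.42. Adipocyte markers summed to 24295 to 38140.1 CPM in flox and 28189.7 to 35837 CPM in the knockout, brown adipocyte markers to 46.7 to 87.1 and 198 to 304 CPM, and endothelial markers to 939 to 1401 and 585 to 853 CPM. Their part in the hormone values was not tested. Among related genes, Adipor2, an adiponectin receptor, rose (0.86), Vegfa fell (-1.41) and Angptl4, an inhibitor of lipoprotein lipase, fell (-1.30).

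**Figure D4:**
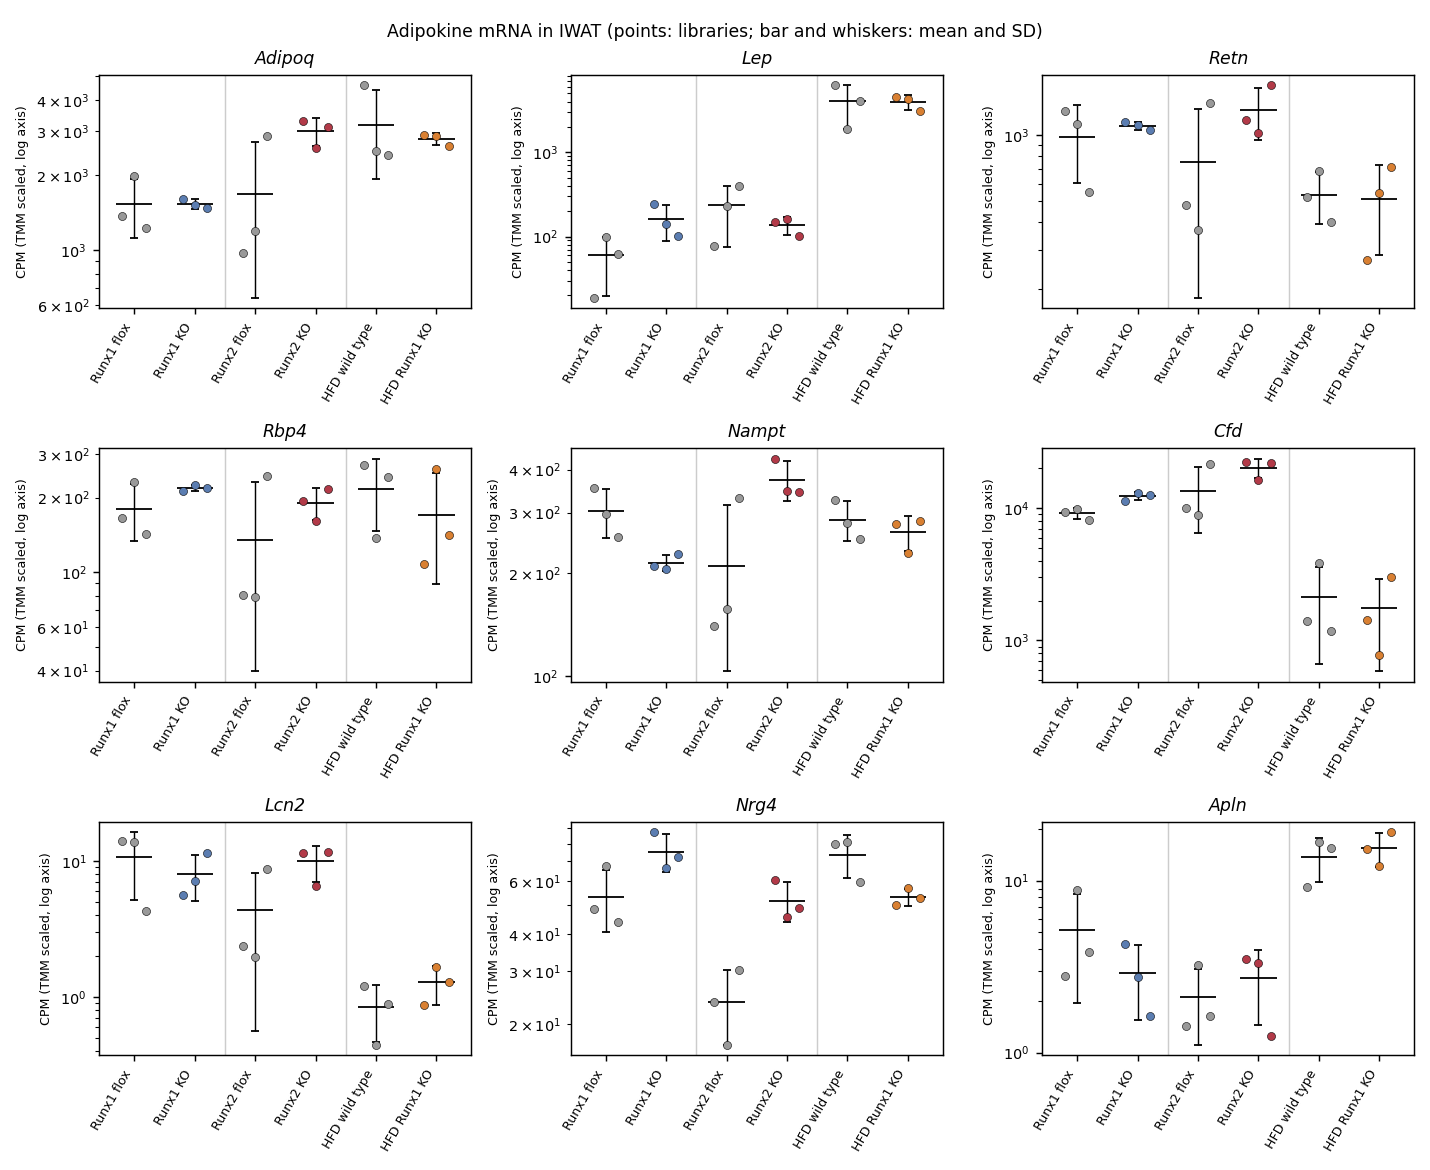
CPM of each gene (log axis) in every IWAT library, with the mean and SD of each group; grey lines separate the 3 tables, which were scaled separately. Lep lies between 1891 and 6263 CPM in the HFD libraries and between 18.9 and 397 CPM in the others.

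In IWAT of Adipoq-cre:Runx2 knockout mice, most of the hormones depended on 1 flox library. For Adipoq, Retn, Rbp4, Cfd and Lcn2, flox replicates 1 and 2 were below every knockout, while flox replicate 3 lay within the knockouts' range or above it. For Adipoq the flox libraries were at 971, 1193 and 2859.5 CPM and the knockouts at 3305, 2565 and 3123. For Rbp4 the flox libraries were at 80.7, 79.4 and 245 CPM and the knockouts at 193, 161 and 217. For Retn the flox libraries were at 479.9, 368 and 1404 CPM and the knockouts at 1173, 1026 and 1686. The heat map of this table shows the same split for Cfd and Lcn2. With all libraries, 0 members and 0% of 15574 genes were called by edgeR's quasi-likelihood test; at an unadjusted p under 0.05 there were 2 members and 3206 genes, and DESeq2 called 950 genes, among them 1 member, Nrg4.

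Without flox replicate 3, 7 members were called higher in the Runx2 knockout, and 6354 of 15875 genes were called in either direction. Lcn2 was then 2.19, Retn 1.62, Adipoq 1.47, Nrg4 1.34, Nampt 1.33, Rbp4 1.25 and Cfd 1.11 on the log2 scale, with adjusted p from 6.58e-04 to 0.00616 in edgeR's quasi-likelihood test. Lep (-0.15) and Apln (0.22) were not. The excluded library carried 7735 CPM of skeletal muscle markers, against 177 to 505 CPM in the knockouts. The 2 flox libraries left had less adipocyte and more B cell RNA than all others of the table. Adipocyte markers were at 16282, 18349 and 39026 CPM in flox and 44373, 43324 and 53891 CPM in the knockout. B cell markers were at 1613, 1598 and 269 CPM in flox and 416, 516 and 232 CPM in the knockout. With all libraries the 6 adipocyte markers had a median log2 difference of 1.01 and the 9 hormones one of 0.79, beside -0.0410 over all genes. What part the adipocyte, B cell and muscle markers have in these hormone differences was not tested.

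Nrg4 kept the groups apart with that library included. It was at 23.7, 17.1 and 30.3 CPM in flox and 60.4, 45.7 and 48.9 in the knockout, with every knockout library above every flox library. The difference was 1.12 (SE 0.24) with all libraries and 1.34 without flox replicate 3. Nampt also kept the groups apart, at 140.1, 157 and 332 CPM in flox and 430.3, 346 and 345 in the knockout. These were the 2 members without overlap, where 24.6% of genes had none. Lep went the other way in this table, at 77.7, 228 and 397 CPM in flox and 150.2, 161 and 101 in the knockout, within the spread of the flox libraries (-0.77, SE 0.52). Tested directly in a joined fit, the Runx2 and Runx1 knockout effects differed in 0 members, where 1.58% of 16416 genes were called; Lep gave -2.18 (adjusted p = 0.184) and Nampt 1.36 (adjusted p = 0.0908) by edgeR's quasi-likelihood test. DESeq2 called 1 member there, Nampt. In edgeR's test 2 members and 3658 genes had an unadjusted p under 0.05. Without Runx2 flox replicate 3, 6 members were called in that difference, beside 4173 of 16744 genes. The 2 effects come from separate tables, so table and gene knocked out cannot be told apart there.

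**Figure D5:**
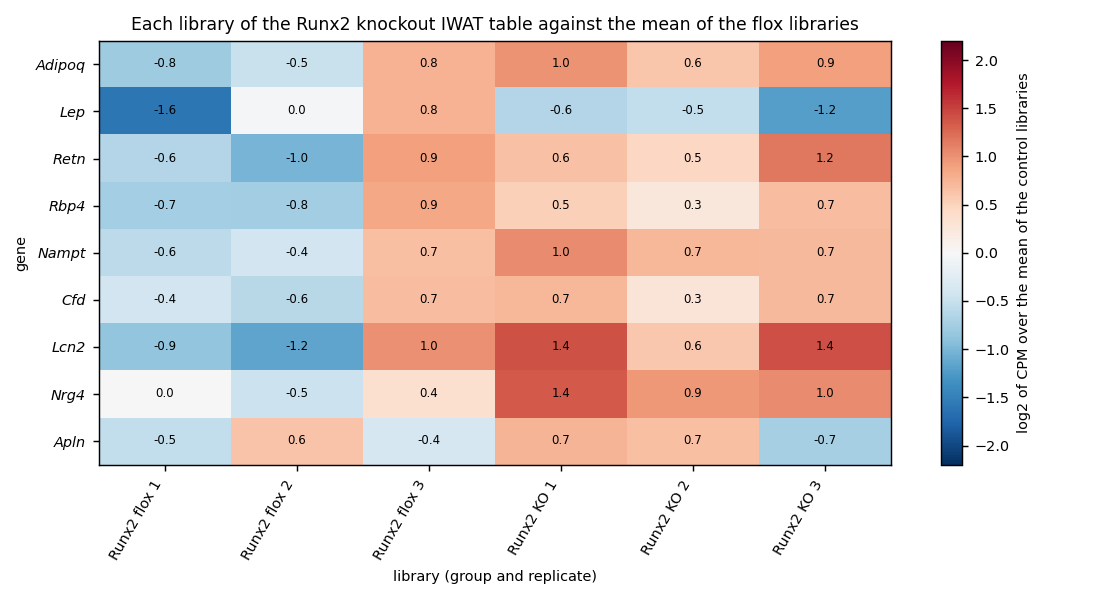
Log2 of each gene's CPM over the mean of the 3 Runx2 flox libraries, for every library of that IWAT table (columns) and each gene (rows). Flox replicate 3 is above the flox mean in 8 of the 9 genes, while flox replicates 1 and 2 are mostly below it. For Lep all knockouts are below the flox mean.

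In the HFD libraries the Runx1 knockout changed none of the 9 hormones by the test. The background was 2.11% of 15058 genes called, 2.07% lower and 0.0465% higher in the knockout. At an unadjusted p under 0.05 there were 1 member, Nrg4, and 1280 genes. DESeq2 called 0 members and 554 genes. Lep was at 6263, 1891 and 4033 CPM in WT and 4509.8, 4307 and 3075 in the knockout (-0.04, 95% interval -0.87 to 0.80). Adipoq was at 4586, 2501 and 2401 CPM in WT and 2894, 2860.3 and 2601 in the knockout (-0.18, 95% interval -0.82 to 0.46). Cfd was spread widely within both groups, at 1414, 3846 and 1170.1 CPM in WT and 1432, 779 and 3037 in the knockout. Nrg4 was at 79.9, 81.0 and 59.7 CPM in WT and 49.8, 56.9 and 52.6 in the knockout, lower in every library (-0.47, SE 0.20, adjusted p = 0.504 in edgeR's quasi-likelihood test). It was the 1 member whose groups did not overlap, beside 12.3% of genes. The WT libraries also held 174 to 396 CPM of B cell markers, against 2.32 to 3.75 CPM in the knockout, and their part in these values was not tested. The authors' deposited table for HFD lists 403 genes and none of the 9.

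The effect of the Runx1 knockout on Nrg4 differed between HFD and the other IWAT. In a fit joining both tables the HFD effect minus the other was -0.99 (SE 0.27, adjusted p = 0.049, edgeR's quasi-likelihood test), the only member of 9 called where 4.4% of 16361 genes were. In the other IWAT the effect was 0.50, and in HFD it was -0.47. The call was lost in 14 of 17 alternative settings, with adjusted p up to 0.132. The HFD condition and its table cannot be told apart.

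Levels can also be set across tables, as a description with no test, since the tables were scaled separately. Lep had group means of 3964 and 4062 CPM in HFD, 59.9 to 234 CPM in the other IWAT and 0.240 to 7.05 CPM in cultures. The 2 HFD groups overlapped each other and no other group. Cfd had its highest means in Runx2 knockout and Runx2 flox IWAT (20263 ± 3400.4 CPM (SD, n = 3) and 13448 ± 7001 CPM (SD, n = 3)), which overlapped. In HFD IWAT it was lower, at 2143 ± 1479 CPM (SD, n = 3) in WT and 1749 ± 1162 CPM (SD, n = 3) in the knockout. Apln was highest in the OEV cultures (148 ± 8.07 CPM (SD, n = 3)) and at 2.10 to 5.15 CPM in IWAT without HFD, with 13.8 ± 3.99 CPM (SD, n = 3) in HFD WT. Nampt was also highest in OEV (1659.8 ± 153 CPM (SD, n = 3)) and lowest in IWAT of Runx2 flox mice (209.7 ± 106 CPM (SD, n = 3)), whose range overlapped that of Runx1 knockout IWAT. Rbp4 was highest in the double knockout cultures (380.0 ± 145 CPM (SD, n = 3)), whose range overlapped that of the Runx2 knockout cultures, and lowest under Runx2 overexpression (7.42 to 7.91 CPM), apart from every other group. Lcn2 was highest in the double knockout (91.8 ± 17.5 CPM (SD, n = 3)), overlapping OEV, and lowest in HFD WT (0.849 ± 0.384 CPM (SD, n = 3)), overlapping the HFD knockout. Nrg4 was highest in Runx1 knockout IWAT (75.3 ± 10.9 CPM (SD, n = 3)), overlapping HFD WT. Adipoq had the smallest ratio of highest to lowest group mean, with means of 928 to 3163 CPM.

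For each hormone the genes with the most alike pattern were taken by Pearson's r of log2 CPM over the 43 libraries, each gene centred on the mean of its table, among 12338 genes tested in all tables. The libraries share tables, controls and depth, so r is a description. Nampt was nearest to Bnip3, a mitophagy receptor (0.96), and Rbp4 to Selenbp1 (0.95) and Bsg (0.94). Adipoq was nearest to Cyb5a (0.90) and Cd302 (0.87). Retn and Cfd both had Adig, a gene of adipocytes, among their 3 nearest (0.87 and 0.88). Lcn2 was nearest to Prxl2a (0.87) and Nrg4 to Poldip2 (0.87). Lep and Apln had no close partner: their highest values were 0.73, with C130074G19Rik, and 0.69, with Rasd1.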

How the data were processed

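Libraries were made from polyA RNA, per the labels. Per the submitters' processing notes, reads were handled with fastp, STAR and featureCounts on mm39, with versions and options not given. The deposited values are raw counts per gene symbol in 6 tables, 1 column per library, per the file headers. The log2 fold changes and adjusted p-values of 2 deposited lists are the authors' own. Their 10 per-sample columns were not used. Of count values from 1 to 19, 71.1 to 81.9% were even, so a count may not be 1 fragment, and strandedness is not given.

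Each table was fitted in edgeR 4.0.16 (R 4.3.3) after filterByExpr, with TMM factors and robust quasi-likelihood F tests. All groups of a table entered 1 fit, and p-values were adjusted by Benjamini-Hochberg over the genes tested in it. There were 14 comparisons, 2 of them differences of effects over joined tables. No 2 libraries agreed within sampling noise (chi-square per degree of freedom at least 6.48). The scripts were tested on simulated counts. Members and lists were chosen with earlier results of these data known. The 9 members were named everywhere, and of each related list up to 3 called genes of lowest adjusted p per comparison. Alternatives were DESeq2 1.42.0 size factors or its test, no count filter, a replicate block, each library left out, the compared groups alone, and muscle-carrying libraries left out (cardiac or skeletal markers over 10 times the table median and 20 CPM). Figures were drawn with matplotlib 3.10.9. Promoters are from RefSeq.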

Additional observations from a re-analysis of the deposited data

Results flagged for a closer look

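Nrg4 was the one hormone whose response to the Runx1 knockout differed by test between the HFD libraries and the other IWAT, which is why it is given here. The difference of the effects was -0.99 on the log2 scale (SE 0.27, adjusted p = 0.049 in edgeR's quasi-likelihood test over 16361 genes). In HFD all 3 knockout libraries lay below all 3 WT libraries, and in the other IWAT 2 of the 3 knockout libraries lay above every flox library. The adjusted p rose above 0.05 in 14 of 17 alternatives.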

How the results depend on the processing

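Of 35 calls of a member, 25 were kept in all alternatives run, and of 1494 alternative values 1389 kept direction and side of the threshold. The 7 calls under Runx1 and the 8 under Runx2 overexpression were among those kept. Retn and Cfd changed sign in the double knockout against the control without its replicate 1: with 1 double knockout library left out, Retn ranged from -0.40 to 0.30 and Cfd from -0.43 to 0.33. Counts of members that moved were as follows. With DESeq2's test, the Runx2 knockout cultures had 1, Runx1 IWAT 2, Runx2 IWAT 1 and the difference of those IWAT effects 1, in place of 0 each. With the compared groups alone, the Runx2 knockout cultures had 2 and the double knockout 0 against either single knockout. The HFD difference had 0 in place of 1 with DESeq2 size factors and with no count filter. Leaving out the libraries over 1000 CPM of skeletal muscle markers was an alternative chosen after seeing the data. That setting kept a lone Runx1 knockout library of the Runx1 IWAT table, so no counts are given for it. Without the muscle-carrying library, Runx2 IWAT had 7 and the difference 6.

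For all genes the same settings gave these counts. DESeq2's test gave 189 in the Runx1 and 160 in the Runx2 knockout cultures (59 and 25 in the main analysis), 1780 and 1501 in the double knockout against each single one (873 and 748), 2249 in Runx1 IWAT (1189), 950 in Runx2 IWAT (0), 554 in HFD (318), 1384 in the HFD difference (720) and 1534 in the other difference (260). The compared groups alone gave 195, 105, 379 (double knockout against control, 2070), 7 and 31. Without the libraries over 1000 CPM there were 415 in Runx1 IWAT and 104 in the HFD difference. Without the muscle-carrying library there were 6354 in Runx2 IWAT and 4173 in the difference.

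Leaving out 1 library at a time, member counts ranged over 6 to 8 (Runx2 against Runx1 overexpression), 2 to 8 (double knockout), 2 to 3 and 0 to 4 (against the Runx1 and Runx2 knockouts), 2 to 6 (IDR), 0 to 1 (Runx1 IWAT), 0 to 7 (Runx2 IWAT), 0 to 1 (HFD difference) and 0 to 6 (the other difference). For all genes they ranged over 4 to 28 (Runx1 knockout cultures), 0 to 9 (Runx2), 1050 to 3584 (double), 176 to 1952 and 205 to 1768 (against the singles), 242 to 1214 (IDR), 99 to 1381 (Runx1 IWAT), 0 to 6354 (Runx2 IWAT), 120 to 394 (HFD), 308 to 833 (HFD difference) and 3 to 4173 (the other difference). Where this left 1 library in an IDR group, that library is assumed to vary like the other group.

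Whether the replicate numbers pair the samples is not settled. Same-numbered libraries of different groups had correlated deviations over 0.1 in 1 of 9 pairs of the overexpression table (r from -0.26 to 0.12). So had 4 of 18 pairs of the knockout cultures and 0 of 3 in HFD, with r = 0.00626 in the IDR table. In Runx1 IWAT 2 of 3 pairs did (r from -0.21 to 0.33), and in Runx2 IWAT 2 of 3 (0.03 to 0.41). Differently numbered pairs of those 2 tables reached 0.28 and 0.22. With so few libraries per group, this check cannot exclude pairing. With the replicate number as a block, member counts were 0 (double against Runx2 knockout, where Lep and Lcn2 lost their calls at adjusted p = 0.0544 and 0.0533), 5 (IDR, with Cfd and Nampt added) and 0 (HFD difference). Counts of all genes under the block were 32, 12, 744 (Runx1 IWAT), 206 (HFD), 261 (HFD difference) and 8 (the other difference). No other call of a member changed under the block. Lep in the cultures, down to 6 counts, is the member most limited by depth.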

Other observations

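Some levels differed between tables in cultures with similar Runx2 mRNA. Runx2 was 309 ± 25.8 CPM (SD, n = 3) in Runx2 overexpression and 294 ± 0.885 CPM (SD, n = 2) with full-length Runx2, in tables scaled separately. Rbp4 was 7.42 to 7.91 CPM in the first and 112 ± 12.1 CPM (SD, n = 2) in the second, Retn 52.5 ± 5.02 CPM (SD, n = 3) and 213 ± 8.12 CPM (SD, n = 2), and Cfd 371 ± 66.5 CPM (SD, n = 3) and 1622 ± 316 CPM (SD, n = 2). Apln was 54.6 ± 3.68 CPM (SD, n = 3) and 36.0 ± 1.95 CPM (SD, n = 2). The full-length table has no culture without added Runx2, so no effect of full-length Runx2 can be read there.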
